A study of Mus musculus with 2 samples.

Results

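The peaks called only in Enl-T1 are stretches of open chromatin that appeared in the peak list of the Enl-T1 kidney library and overlapped no peak of the Enl-WT library, not even by 1 bp. They were chosen by these separate peak calls and numbered 17478 of the 130027 Enl-T1 peaks, or 13.4%. Of the 159560 Enl-WT peaks, 47872 were called only in Enl-WT. Nuclei came from E15.5 mouse embryos, taken from the kidneys, with 1 library in each group. Enl-WT embryos were Enl+/+ and Wt1GFPCre/+, and Enl-T1 embryos were Enl flox-T1/+ and Wt1GFPCre/+, so that both groups carried the Wt1GFPCre knock-in, which removes 1 functional Wt1 allele. The Enl-T1 allele is a conditional knock-in of the Wilms tumor insertion p.117_118insNHL, switched on by the Cre in the nephron and stromal lineages and not in the ureteric epithelium or endothelium. The number of embryos behind each library is not known here.

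ENL (Mllt1) is a chromatin reader whose YEATS domain binds acylated histones and brings elongation factors to genes, and the T1 insertion lies in that domain. In single-nucleus ATAC-seq (snATAC-seq), a transposase cuts open DNA, and stretches with many cuts are called as peaks. Nephron progenitors renew under Six2 and turn to epithelium after a Wnt signal, while the stroma around them marks its cells with Foxd1 and collagens. HOX9 to HOX13 proteins prefer DNA words such as CCATAAA and CAATAAA, AP-1 prefers TGANTCA, and CTCF holds chromatin loops at longer sites that include CCACNAGGG.

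Before the values, 8 of these peaks are shown by their middle 300 bases, on the plus strand of GRCm38 (mm10), because they carry the words that the sequence results turn on. In the first 6, capitals mark CCATAAA or CAATAAA on either strand, and in the last 2 they mark TGANTCA. None of these windows was shown to be bound by a factor.
Stroma-high peak nearest Arap2, chr5:62350207-62350506: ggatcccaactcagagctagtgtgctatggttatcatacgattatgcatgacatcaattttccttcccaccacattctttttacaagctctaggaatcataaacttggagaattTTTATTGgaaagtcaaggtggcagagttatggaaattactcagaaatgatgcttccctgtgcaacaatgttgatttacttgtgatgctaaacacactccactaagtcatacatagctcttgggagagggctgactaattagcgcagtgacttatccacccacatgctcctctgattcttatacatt
Progenitor-high peak nearest Gm21833, chr16:82276415-82276714: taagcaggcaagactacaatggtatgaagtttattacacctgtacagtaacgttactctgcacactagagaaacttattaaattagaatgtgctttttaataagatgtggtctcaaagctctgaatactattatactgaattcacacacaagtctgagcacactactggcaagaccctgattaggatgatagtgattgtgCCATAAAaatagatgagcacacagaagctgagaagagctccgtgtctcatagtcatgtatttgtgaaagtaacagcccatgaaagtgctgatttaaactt
Stroma-high peak nearest A730009L09Rik, chr16:84233043-84233342: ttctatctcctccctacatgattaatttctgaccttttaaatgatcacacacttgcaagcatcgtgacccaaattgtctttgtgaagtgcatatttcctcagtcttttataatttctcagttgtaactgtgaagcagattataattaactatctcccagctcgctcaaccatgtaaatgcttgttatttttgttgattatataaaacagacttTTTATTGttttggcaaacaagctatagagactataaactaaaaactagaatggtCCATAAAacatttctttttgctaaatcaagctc
Peak in an intron of Gm20388 near Foxl1, chr8:121140398-121140697: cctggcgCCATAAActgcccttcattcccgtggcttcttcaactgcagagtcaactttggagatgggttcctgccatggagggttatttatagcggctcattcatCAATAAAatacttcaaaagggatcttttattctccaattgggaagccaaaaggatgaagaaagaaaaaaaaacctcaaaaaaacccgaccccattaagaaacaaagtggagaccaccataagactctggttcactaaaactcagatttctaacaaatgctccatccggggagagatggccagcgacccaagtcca
Peak in an intron of Adgre1, chr17:57366557-57366856: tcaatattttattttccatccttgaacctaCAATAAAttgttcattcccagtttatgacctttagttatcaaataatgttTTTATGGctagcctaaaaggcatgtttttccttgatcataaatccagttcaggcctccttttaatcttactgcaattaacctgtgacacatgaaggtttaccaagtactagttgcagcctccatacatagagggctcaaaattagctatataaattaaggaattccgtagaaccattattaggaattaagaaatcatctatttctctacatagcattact
Peak in an intron of Ets1, chr9:32643307-32643606: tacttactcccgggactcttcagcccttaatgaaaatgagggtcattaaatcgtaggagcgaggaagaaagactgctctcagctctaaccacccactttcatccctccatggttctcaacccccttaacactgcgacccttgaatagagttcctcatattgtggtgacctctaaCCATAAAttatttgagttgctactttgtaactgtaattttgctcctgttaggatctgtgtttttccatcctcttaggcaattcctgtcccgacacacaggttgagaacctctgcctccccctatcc
Ureteric-high peak nearest Csn3, chr5:87906912-87907211: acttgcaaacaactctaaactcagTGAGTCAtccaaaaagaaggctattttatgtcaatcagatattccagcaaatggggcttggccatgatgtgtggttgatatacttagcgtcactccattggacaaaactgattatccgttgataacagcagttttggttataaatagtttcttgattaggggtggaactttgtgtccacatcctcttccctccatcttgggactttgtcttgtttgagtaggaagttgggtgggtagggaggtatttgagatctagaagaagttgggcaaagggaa
Ureteric-high peak nearest Ndst4, chr3:125190631-125190930: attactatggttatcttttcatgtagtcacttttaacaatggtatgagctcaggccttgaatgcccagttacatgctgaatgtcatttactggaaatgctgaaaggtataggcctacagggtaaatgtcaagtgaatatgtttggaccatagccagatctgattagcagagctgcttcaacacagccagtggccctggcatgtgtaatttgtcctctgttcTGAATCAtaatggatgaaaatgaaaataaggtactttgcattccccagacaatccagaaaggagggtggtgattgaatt

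Both libraries had limits that bear on these peaks. Enl-WT held 9472 nuclei with 2000 to 100000 counts and Enl-T1 held 12635, with medians of 14790 and 8753 counts per nucleus, where 2 counts stand for about 1 fragment. The libraries shared 169 barcodes. A peak called only in Enl-T1 has no row in the Enl-WT counts, so its level in Enl-WT was not measured here and an absent call does not show closed chromatin. Each group was a single library, so no spread between replicates could be measured and no test was made. The intervals below are exact 95% intervals (Clopper-Pearson) for counting error alone.

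The peaks called only in Enl-T1 were mostly weak. Their median was 273 counts (quartiles 214 and 370), against 508 in the Enl-T1 peaks shared with Enl-WT, and the median peak had a count in 1.12% of Enl-T1 nuclei against 2.04%. Per kilobase, the medians were 2.80 and 5.12 CPM, the counts scaled to 1000000 in all. Widths were close, with medians of 882 and 899 bp. The share called only in Enl-T1 fell from 44.1% of peaks with 100 to below 200 counts to 14.0% at 300 to below 500 counts and 0.76% at 1000 or more. Only 190 of the peaks reached 1000 counts. The nearest Enl-WT peak was a median of 2878.5 bp away, with quartiles of 941 and 6938 bp, and 16.1% of the peaks had one within 500 bp. At the edge of the rule, the 55 peaks that ended within 10 bp of an Enl-WT peak without touching it had a median of 269 counts, and the 54 that overlapped one by at most 10 bp, and so were left out, had 253.5. For example, a peak at chr2:104040661-104041360 with no gap and no overlap had 342 counts, and one at chr12:111853552-111854170 with 1 bp of overlap had 215. Peaks near the edge therefore had like counts on both sides.

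They lay mainly away from promoters. Of the 17478, 1161 were within 2 kb of a transcription start site (TSS), or 6.64% (interval 6.28 to 7.02%), while 47.7% were in introns, 42.8% between genes and 2.81% in exons. Among the shared Enl-T1 peaks 19.3% were at promoters. By counts the order varied: at 200 to below 300 counts the promoter shares were 3.87% and 5.09%, at 300 to below 500 counts 6.86% and 6.88%, at 500 to below 1000 counts 17.99% and 13.2%, and at 1000 or more 52.6% and 56.4%. The 47872 peaks called only in Enl-WT had a promoter share of 6.52%. The median distance to a protein-coding TSS was 57.1 kb, against 29.6 kb for shared peaks and 39.4 kb for those called only in Enl-WT. On chromosomes 1 to 19 and X, between 11.1% (chromosome 11) and 15.48% (chromosome 18) of the Enl-T1 peaks were called only in Enl-T1. Interspersed and simple repeats made up 14.5% of the middle 300 bp of the peaks called only in Enl-T1 and 11.7% of that of the shared peaks. At 300 to below 500 counts the values were 13.8% and 12.7%.

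**Figure D1:**
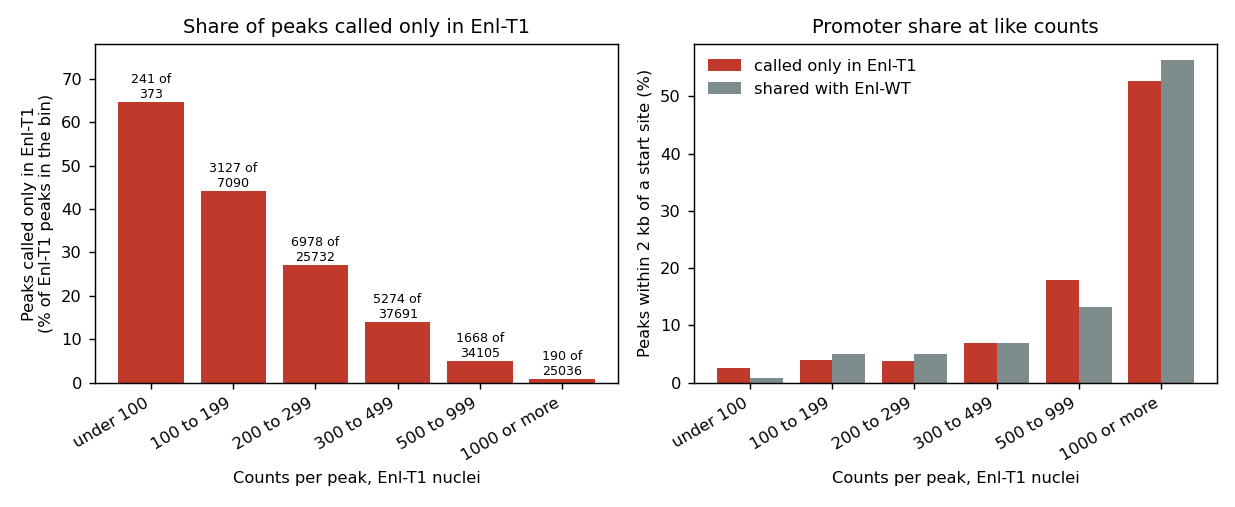
Left, the percentage of Enl-T1 peaks that were called only in Enl-T1, by counts per peak in Enl-T1 nuclei, with the numbers above the bars. Right, the percentage of peaks within 2 kb of a TSS in the same bins, for peaks called only in Enl-T1 (red) and shared with Enl-WT (grey). The share called only in Enl-T1 falls from 64.6% to 0.76%, and the promoter share of the red bars is above that of the grey at 500 to below 1000 counts (17.99 and 13.2%) and below it at 1000 or more (52.6 and 56.4%).

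The strongest of these peaks were mostly promoters that were open in each of the 4 largest classes. The first by counts lay at chr11:106788381-106789412, 355 bp from the TSS of Cep95, which encodes a centrosomal protein, and in an intron of Ddx5, which encodes an RNA helicase. It had 10217 counts and was open in 32.9% of Enl-T1 nuclei, and an Enl-WT peak lay 460 bp away. The next 7 were in an intron of Spaca6, a sperm membrane protein gene, and within 2 kb of the TSS of Ctf1 (cardiotrophin-1, a cytokine), Zfp651, Sirpa (a receptor for CD47), Map3k1 (a kinase), Anp32a and Ppargc1b (a coactivator of mitochondrial genes). Those 7 held between 2651 and 4667 counts. Across nephron progenitor-like, interstitial stroma-like, ureteric epithelium-like and endothelium-like nuclei, the log2 ratios of all 8 to the other nuclei stayed between -0.79 and 0.57. None held either HOX9 to HOX13 word.

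To see which cells these peaks were open in, Enl-T1 nuclei were sorted into classes by clustering both libraries on 110639 regions shared by them, so that none of these peaks entered the clustering. Markers named 4187 Enl-T1 nuclei as nephron progenitor-like, 5542 as interstitial stroma-like, 1705 as ureteric epithelium-like and 507 as endothelium-like. Only 19 Enl-WT nuclei were nephron progenitor-like, and 1925 Enl-WT nuclei sat in cluster 2, whose best match was nephron progenitor but which was left unnamed because Umod, a tubule gene, was among its leading genes. Cluster 15 (154 Enl-WT and 198 Enl-T1 nuclei) had the same best match and was left unnamed because its 100 strongest regions held 5.78% of its counts, over 3 times the share in the median cluster. The makeup of the libraries and the openness of a peak within a cell type cannot be told apart by the peak calls. In all Enl-T1 nuclei, 5.10% of counts (5.09 to 5.11%) fell in these peaks, while peaks called only in Enl-WT held 11.2% of the Enl-WT counts.

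The share of counts in these peaks was highest in stroma and progenitors. The call that chose the peaks pooled Enl-T1 nuclei, of which 43.9% were stroma-like and 33.1% progenitor-like. In Enl-WT 34.6% were stroma-like. The order of the classes is thus not independent of how the peaks were chosen and is a description. The median nucleus had 5.49% in interstitial stroma-like nuclei (quartiles 4.60 and 6.43%) and 5.43% in nephron progenitor-like nuclei (5.00 and 5.88%). It was 4.29% in ureteric epithelium-like, 4.31% in proximal tubule-like, 3.86% in immune-like and 3.55% in endothelium-like nuclei, with upper quartiles of 4.91% and 4.11% for ureteric epithelium and endothelium. Within the stroma, clusters 9 and 12, with 99.2% and 95.4% of nuclei from Enl-T1, had medians of 6.28% and 6.22%, and clusters 1, 4 and 5, with 54.3%, 58.4% and 27.8%, had 4.44%, 5.30% and 4.23%. Cluster 11 of the ureteric epithelium (81.0% Enl-T1) had 4.91% and cluster 3 (58.2%) had 3.92%. The share also moved with depth: it was 6.29% in the 1848 shallowest of the stroma-like nuclei and 4.91% in the 1847 deepest, and 5.61% and 5.22% in the 1396 shallowest and 1396 deepest progenitor-like nuclei. Stroma-like cluster 6 was the shallowest, at a median of 3810 counts, and had 6.77%. The part of depth in these values was not tested, and clusters 9 and 1 had medians of 8105 and 8394 counts.

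**Figure D2:**
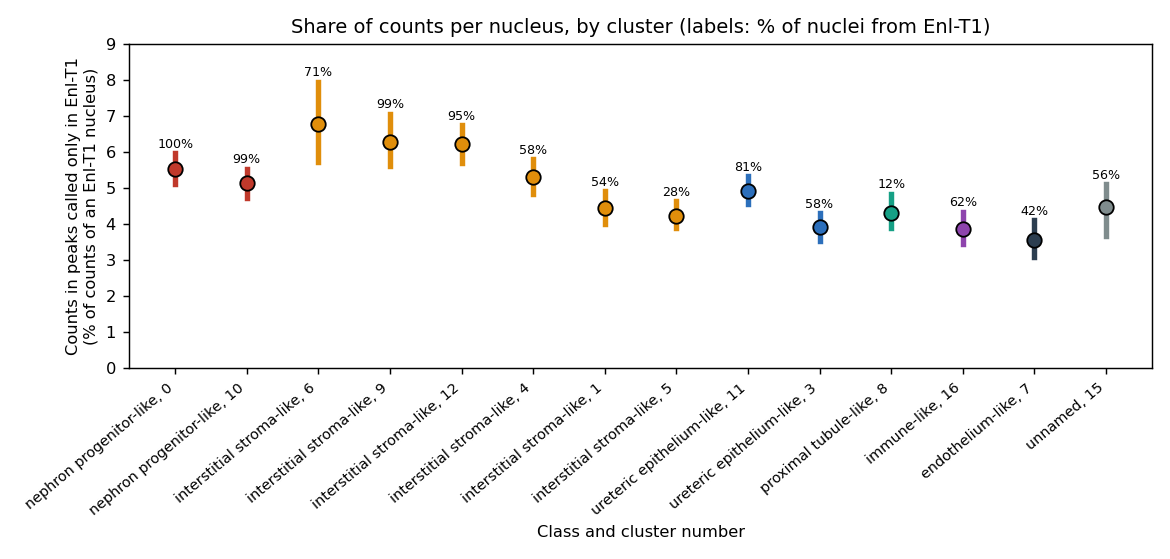
Percentage of the counts of an Enl-T1 nucleus that fell in peaks called only in Enl-T1, for clusters with at least 100 Enl-T1 nuclei. Points are medians over nuclei, bars run from the lower to the upper quartile, and the label gives the percentage of the cluster's nuclei from Enl-T1. The highest medians are in stroma-like clusters 6, 9 and 12 (6.77, 6.28 and 6.22%) and the lowest in endothelium-like nuclei (3.55%).

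Single peaks were then compared between each class and the other Enl-T1 nuclei. Of the 17474 with at least 50 counts, 24.4% (23.8 to 25.1%) were at least 2-fold higher in nephron progenitor-like nuclei than in the other Enl-T1 nuclei, and over all Enl-T1 peaks 15.8% were. For interstitial stroma-like nuclei the share was 25.7% (25.04 to 26.3%) against 18.9% of all Enl-T1 peaks. Ureteric epithelium-like nuclei had 11.9% (11.4 to 12.4%) against 13.5%, and endothelium-like nuclei 5.78% (5.44 to 6.14%) against 9.21%. With 1 CPM added to both values, the last pair was 3.57% and 7.49%. At least 2-fold lower were 27.3% of these peaks in progenitors (24.1% of all Enl-T1 peaks), 23.2% in stroma (21.8%), 47.3% in ureteric epithelium (31.5%) and 50.1% in endothelium (37.7%). The lower shares were not matched for counts, and these peaks had a median of 273 counts over all Enl-T1 nuclei. For the shares at least 2-fold higher, the order of stroma and progenitors turned among peaks with at least 200 counts (25.9% and 26.1%). It also turned among those with 300 to below 500 counts. At 300 to below 500 counts the shares at least 2-fold higher were 27.7% of these peaks and 15.4% of shared peaks in progenitors, and 26.1% and 21.7% in stroma. They were 10.8% and 17.8% in ureteric epithelium, and 5.44% and 12.05% in endothelium. The median log2 ratio of these peaks was -0.11 in progenitors, -0.05 in stroma, -0.91 in ureteric epithelium and -1.003 in endothelium. For shared peaks these medians were -0.10, -0.11, -0.21 and -0.44. In all, 64.1% of these peaks were at least 2-fold higher in just 1 of the 4 classes, against 49.8% of shared peaks. Those 2 shares were not matched for counts, with medians of 273 and 508 counts per peak. The peak calls pooled nuclei of which 4.01% were endothelium-like in Enl-T1 and 7.30% in Enl-WT. The class shares are thus not independent of how the peaks were chosen.

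**Figure D3:**
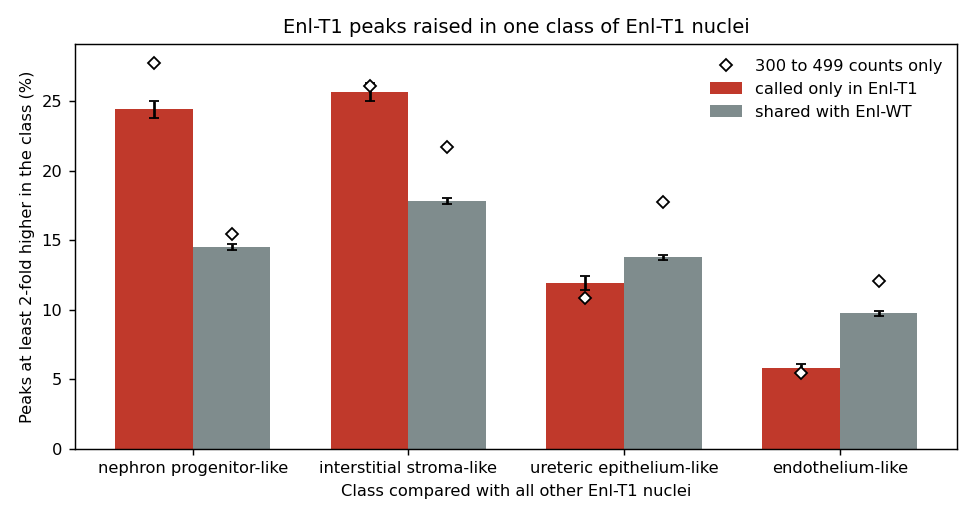
Percentage of Enl-T1 peaks at least 2-fold higher in a class of Enl-T1 nuclei than in all other Enl-T1 nuclei, for peaks called only in Enl-T1 (red) and shared with Enl-WT (grey). Error bars are exact 95% binomial intervals for counting error and diamonds give the value for peaks with 300 to below 500 counts. Red lies above grey in progenitors (24.4 and 14.5%) and stroma (25.7 and 17.8%) and below it in ureteric epithelium (11.9 and 13.8%) and endothelium (5.78 and 9.74%).

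Within the stroma the same peaks leaned to the clusters that were nearly all Enl-T1. Against the other stroma-like clusters, 14.1% of the peaks called only in Enl-T1 (2457 of 17474) were at least 2-fold higher in clusters 9 and 12, and 5.93% at least 2-fold lower. Over all Enl-T1 peaks 4.37% were higher, and of the shared peaks 2.86% were higher and 6.28% lower. Without the shallow cluster 6 the shares that were higher were 19.7% and 5.48%. Clusters 9 and 12 held 8 and 39 Enl-WT nuclei. Pairs of clusters in the other classes also had more of these peaks higher than lower, and so did the shared peaks in those pairs. In ureteric epithelium, where Enl-T1 is not switched on, 22.6% were at least 2-fold higher in cluster 11 than in cluster 3 and 17.4% lower. Over all Enl-T1 peaks 14.0% were higher, and of the shared peaks 12.7% were higher and 11.2% lower. In progenitors, 13.3% were higher in cluster 0 than in cluster 10 and 4.26% lower. Over all Enl-T1 peaks 6.83% were higher, and of the shared peaks 5.82% were higher and 3.70% lower. Both progenitor-like clusters were nearly all Enl-T1 (99.7% and 99.0%). The makeup of the clusters and the choice of the peaks rest on the same pair of libraries, so these shares are a description.

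The 18 peaks with the highest ratio in a class mostly lay away from promoters, with 1 of the 18 within 2 kb of a TSS. The highest ratio in stroma belonged to chr5:62349947-62350766, between genes and 415.8 kb from the nearest protein-coding TSS, that of Arap2. It had 269 counts, of which 259 were in stroma-like nuclei, and stood at 6.11 CPM there and 0.149 CPM in the other nuclei, a log2 ratio of 5.36 (4.29 to 7.58). Its window, shown above, holds CAATAAA on the minus strand. The next by ratio, nearest A730009L09Rik and Cdh9, had log2 ratios of 4.41 (3.57 to 5.58) and 4.41 (3.56 to 5.39), and the former holds both words. In progenitors the first was chr5:69752099-69752993 nearest Gnpda2, a gene of glucosamine metabolism, at 5.45 CPM against 0.311, a log2 ratio of 4.13 (3.27 to 5.30). The second, chr16:82275940-82277189, stood at 5.54 CPM against 0.326 and holds CCATAAA. The next, nearest Gm7233 on chromosome 14, lies among near-identical gene copies, where reads can be shared, so its level is uncertain.

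In ureteric epithelium the peak with the highest ratio, chr5:87906535-87907588, lay 1717 bp from the TSS of BC037156 and 18.5 kb from that of Csn3, a milk casein gene, at 12.003 CPM against 0.395, a log2 ratio of 4.93 (4.16 to 5.67). This peak and chr3:125190329-125191232, hold the AP-1 word shown in capitals above. In endothelium the first was chr8:79325338-79326134, nearest Mmaa, at 29.2 CPM against 0.969, a log2 ratio of 4.91 (4.31 to 5.44). An Enl-WT peak lay 992 bp from it. The 3 peaks named for immune-like nuclei had log2 ratios of 4.82 to 5.63 and the 3 for proximal tubule-like nuclei 3.09 to 3.13, one of them in an intron of Rora, a nuclear receptor gene, at 30.7 CPM against 3.62. Within their own class these peaks were open in between 2.18% (the Arap2 peak) and 20.1% (the Itprid2 peak of immune-like nuclei) of nuclei.

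**Figure D4:**
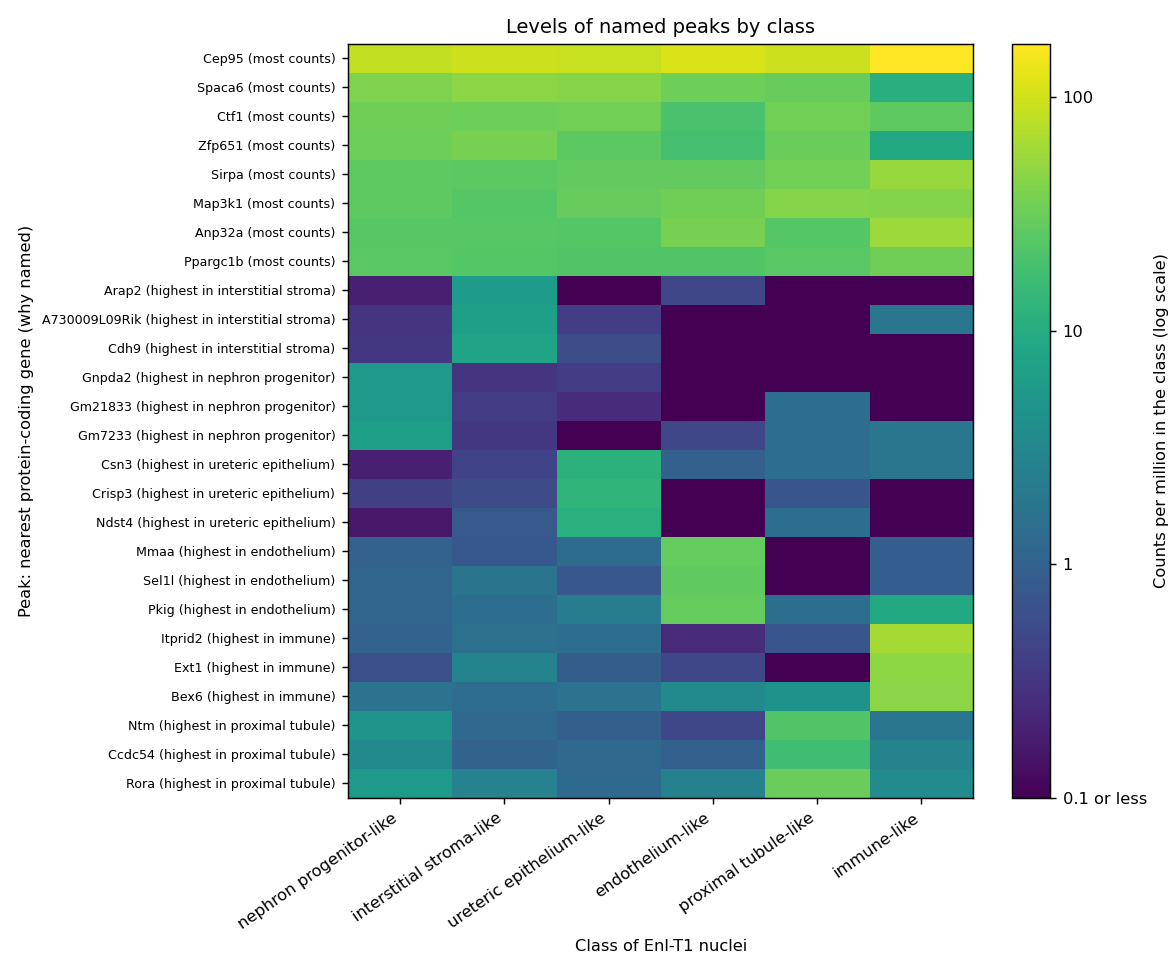
Levels, in CPM, of named peaks called only in Enl-T1 (rows, named by the nearest protein-coding gene) in 6 classes of Enl-T1 nuclei (columns), on a log colour scale that ends at 0.1 CPM or less. The first 8 rows are the peaks with most counts, within 2-fold of the other nuclei in the 4 largest classes and more uneven in immune-like nuclei. The others are the 3 with the highest ratio in each class, chosen for that pattern.

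Words preferred by HOX9 to HOX13 proteins were more common in these peaks. Either CCATAAA or CAATAAA, read on both strands of the middle 300 bp, was in 20.2% of the peaks called only in Enl-T1, 11.3% of the shared Enl-T1 peaks, 9.21% of the peaks called only in Enl-WT and 12.5% of all Enl-T1 peaks. Beyond 2 kb of a TSS, 3405 of 16316 peaks held one, or 20.9% (20.2 to 21.5%), against 12.9% of 90833 shared peaks and 9.37% of 44740 called only in Enl-WT. These peaks were poorer in G and C, with a median of 45.3% against 49.7%. When the shared peaks were weighted to the same counts and GC content, their share rose to 14.7%, which left the peaks called only in Enl-T1 1.42-fold higher. At a GC content of 45 to 50% the shares were 17.0% for peaks called only in Enl-T1, 13.2% for shared peaks and 8.72% for peaks called only in Enl-WT. At 55% and over they were 4.36, 4.15 and 2.98%.

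The words also sat near the middle of the peaks. In distal peaks called only in Enl-T1 there were 45.8 words per 1000 peaks in the 50 bp after the midpoint and 25.9 at 200 to 250 bp from it. Shared peaks went from 25.5 to 18.8, and peaks called only in Enl-WT from 15.8 to 17.99. The shares by class and by cluster that follow were not weighted for counts or GC content. By class, 27.0% of the 4113 distal peaks that were progenitor-high held a word, against 17.7% of shared peaks that were progenitor-high. In stroma-high peaks the shares were 25.2% and 18.1%, in ureteric-high peaks 11.4% and 8.95%, and in endothelium-high peaks 11.5% and 9.13%. Of the 2390 distal peaks that were higher in stroma-like clusters 9 and 12, 32.3% held a word, against 18.9% of the other distal peaks called only in Enl-T1. Among shared peaks those values were 21.7% and 12.6%. In the other pairs, a word was in 26.4% of the 2254 distal peaks higher in progenitor-like cluster 0 than in cluster 10, against 19.99% of the others, and in 20.4% of the 3761 higher in ureteric cluster 11 than in cluster 3, against 21.02%.

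**Figure D5:**
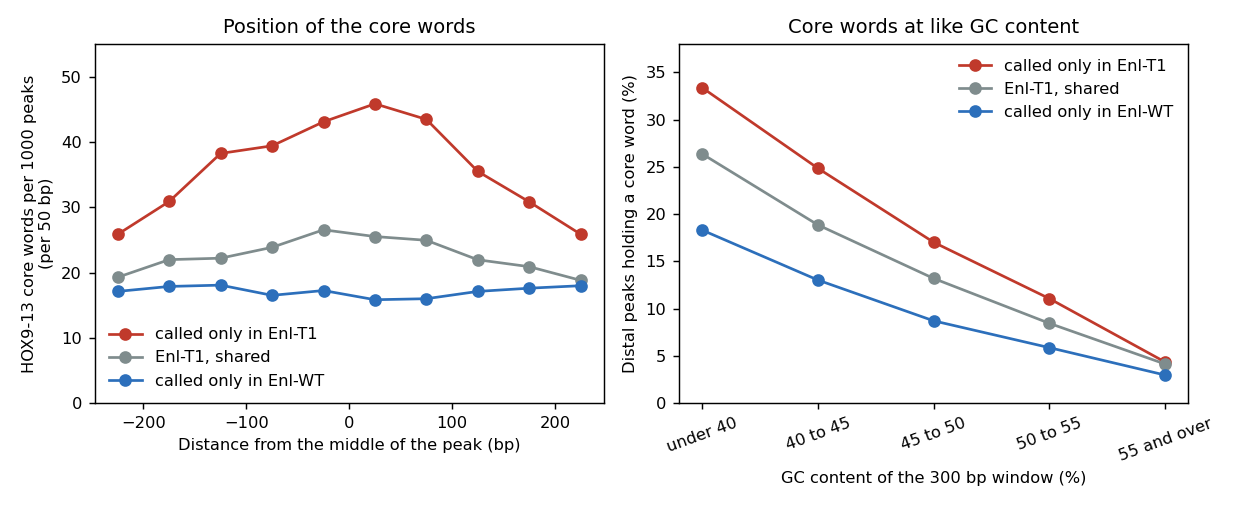
Left, HOX9 to HOX13 words per 1000 distal peaks in 50 bp steps from the middle of the peak. Right, the percentage of distal peaks with a word in the middle 300 bp, by GC content. Red is called only in Enl-T1, grey is Enl-T1 shared with Enl-WT, blue is called only in Enl-WT. The red line peaks at 45.8 in the middle and lies above grey and blue in each GC bin, by least at 55% and over (4.36, 4.15 and 2.98%).

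Words of 7 letters were also ranked without starting from known factors. Of 6124 words, with shared peaks weighted as above, the first was CATAAAA, in 15.0% of distal peaks called only in Enl-T1 and 9.58% of weighted shared peaks, while TCATAAA ranked 3 and CCATAAA ranked 4. Among the first 15 words 7 held CATAA, as did 46 of the 6124. The others of the first 15 included ACGGCCC at rank 2, in 1.02% of distal peaks called only in Enl-T1 and 0.654% of weighted shared peaks, which ranked 4436 without the weighting. The word CGTAAAA ranked 5 and TCGTAAA ranked 7, and these 2 hold the letters CGTAA. The word CAATAAA ranked at 16, with 11.5% and 8.15%. At the other end stood CCACTAG, a part of the CTCF site, in 2.74% of distal peaks called only in Enl-T1 and 4.68% of weighted shared peaks. The CTCF core CCACNAGGG was in 1.42% of these peaks, 1.94% of weighted shared peaks and 1.54% of peaks called only in Enl-WT.

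Other factor words differed less or were lower. The AP-1 word was in 13.8% of distal peaks called only in Enl-T1 and 12.2% of weighted shared peaks, and in 31.2% of those that were ureteric-high, against 21.3% of shared ureteric-high peaks. Words for PBX-HOX pairs (9.14 and 8.82%), SIX-family factors (22.1 and 22.5%), LEF/TCF (6.39 and 5.92%) and MEIS (22.9 and 24.0%) were close to the weighted shared peaks. The TEAD word ACATTCC, bound downstream of Hippo signalling, was in 4.76% against 6.64% of weighted shared peaks and 7.69% of peaks called only in Enl-WT. The word for HNF1, a factor of tubule epithelium, was in 1.24%, 1.88% and 2.77%.

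Near genes, 41.0% of 21924 protein-coding genes had a peak called only in Enl-T1 within 50 kb of the TSS. Genes differ in how many peaks lie near them, so the share of nearby Enl-T1 peaks that were called only in Enl-T1 is given too, which was 10.2% over all genes. Genes of nephron commitment, which turn progenitors into epithelium, had such a peak in 17 of 20, with 34 of 212 nearby peaks (16.04%) called only in Enl-T1. Of those 34, 4 were at least 2-fold higher in progenitor-like and 5 in stroma-like nuclei, where over all peaks called only in Enl-T1 the shares were 24.4% and 25.7%. Stromal identity genes had one in 17 of 24, with 39 of 233 (16.7%). Of those 39, 18 were at least 2-fold higher in stroma-like nuclei and 8 in progenitor-like nuclei. Progenitor self-renewal genes had one in 11 of 20, with 20 of 208 (9.62%), of which 10 were at least 2-fold higher in progenitor-like and 2 in stroma-like nuclei. Several genes of the stromal and self-renewal lists were also markers that named the classes, so these class counts are not independent of the names. Proximal tubule genes had one in 5 of 15, with 5 of 94 nearby peaks (5.32%), and of 175 Enl-WT peaks near them 87 were called only in Enl-WT (49.7%, against 27.8% over all genes).

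The other lists spread around the value for all genes. Hox genes had 13 of 146 nearby peaks called only in Enl-T1 (8.90%), with 28 of 39 genes near one (neighbouring genes share peaks), and Hox cofactors 8 of 94 (8.51%). Wnt ligands and feedback genes had 31 of 296 (10.5%), Fgf, Bmp and Gdnf signals 27 of 218 (12.4%), axon guidance genes 25 of 201 (12.4%) and neural genes 15 of 78 (19.2%). Ureteric epithelium genes had 24 of 233 (10.3%), podocyte genes 14 of 146 (9.59%), muscle genes 10 of 102 (9.80%), distal tubule and loop genes 7 of 102 (6.86%), endothelium genes 9 of 187 (4.81%) and immune genes 5 of 103 (4.85%). The lists are small, and no test of a list was made. Named after their values were seen, Osr2, a transcription factor of early nephrons, had 6 of 14 nearby peaks called only in Enl-T1, Cdh6, a cadherin of the early tubule, had 4 of 7, Unc5c, a netrin receptor, had 6 of 16, and Fat4, an atypical cadherin of the stroma, had 4 of 15.

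Hox genes set position along the body, and the Hox9, Hox10 and Hox11 groups act in the renewal and differentiation of nephron progenitors. At Hox genes, 7 peaks called only in Enl-T1 lay within 2 kb of a TSS, at Hoxb1, Hoxb7, Hoxb8, Hoxb9, Hoxc11, Hoxd3 and Hoxd12. The Hoxd12 peak, chr2:74674673-74675511, had 2373 counts and was open in 17.4% of progenitor-like nuclei and 2.64% of ureteric epithelium-like nuclei. It stood at 36.2 CPM in progenitors, 15.2 in stroma, 5.46 in ureteric epithelium and 6.51 in endothelium, and its log2 ratio in progenitors was 1.51 (1.34 to 1.69). An Enl-WT peak lay 1016 bp away. The Hoxb9 peak, in an intron, had 2253 counts, at 25.4 CPM in progenitors, 17.3 in stroma, 11.5 in ureteric epithelium and 35.2 in endothelium. The Hoxd3 peak had 1394 counts, with 19.5 CPM in progenitors and 8.66 in stroma, and the Hoxc11 peak 703, with 8.84 and 6.28 CPM. Hoxb7 was higher in stroma, at 22.4 CPM against 15.9 in progenitors and 9.02 in ureteric epithelium. Hoxb7 was also a marker that named the ureteric epithelium-like clusters, so levels at it are not independent of the class name. The Hoxd3 and Hoxc11 peaks hold CAATAAA. Distances to the nearest Enl-WT peak were 560 bp for the Hoxb9 peak, 277 for Hoxd3, 487 for Hoxc11 and 282 for Hoxb7.

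Peaks at genes of the progenitors and of their commitment varied by class. Eya1 was also a marker that named the progenitor-like clusters, so levels at it are not independent of the class name. At Eya1, a partner of Six2 in progenitor renewal, a peak 1.00 kb from the TSS (chr1:14305154-14305988) had 889 counts, with 17.4 CPM in progenitors and 2.38 CPM in the other nuclei, a log2 ratio of 2.87 (2.52 to 3.24). That peak lay 35 bp from an Enl-WT peak. A second at Eya1 had 382 counts and a log2 ratio of 2.11 (1.64 to 2.60), with an Enl-WT peak 773 bp away. An intron of Pax2, a transcription factor of nephron and ureteric lineages, held a peak of 942 counts at 13.1 CPM in progenitors, 14.5 in ureteric epithelium and 2.45 in stroma. At Cdh6, chr15:13171954-13172734 had 854 counts and was about even, with 8.43 CPM in progenitors, 8.12 in stroma and 6.16 in ureteric epithelium. It holds both HOX9 to HOX13 words and lay 242 bp from an Enl-WT peak. The peak 24.2 kb from the TSS of Wnt4, the signal that starts the turn to epithelium, had 955 counts and stood at 11.8 CPM in stroma, 7.62 in progenitors and 13.2 in proximal tubule-like nuclei, the last from 18 counts. The peak named for Fgf8, a survival signal of early nephrons, lay nearest the TSS of Npm3 and had 1033 counts, and the Fgf9 peak 1117, with 12.3 CPM in progenitors and 13.1 in ureteric epithelium.

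At stromal genes several peaks were higher in stroma-like nuclei. Of the genes below, Col1a1, Dcn, Ret and Adgre1 were also markers that named the classes, so levels at them are not independent of the class names. At Col1a1, which encodes the main chain of type I collagen, a peak 1.5 kb from the TSS had 802 counts and 11.8 CPM in stroma against 4.52 elsewhere, a log2 ratio of 1.38 (1.09 to 1.69). At Dcn (decorin) the log2 ratio in stroma was 2.24 (1.67 to 2.75), at Tbx18, a transcription factor of ureteric stroma, 1.49 (1.10 to 1.91), and at Fgf2 1.37 (0.94 to 1.78). Distances from these peaks to the nearest Enl-WT peak were 271 bp at Col1a1, 309 at Dcn, 620 at Tbx18 and 1069 at Fgf2. The peak in an intron of Gm20388, 12.6 kb from the TSS of Foxl1, had 845 counts and a log2 ratio of 1.78 (1.50 to 2.11) in stroma. It is printed above with both HOX9 to HOX13 words. Adgre1 marks macrophages, yet the peak in its intron had 410 counts with 361 in stroma-like nuclei, 8.52 CPM against 0.731, a log2 ratio of 3.54 (2.90 to 4.18). Immune-like nuclei had 4 counts in it, or 3.65 CPM. Ret, the receptor for Gdnf at ureteric tips, had a peak 0.87 kb from its TSS with 13.2 CPM in ureteric epithelium and 1.86 elsewhere, a log2 ratio of 2.83 (2.41 to 3.26). An intron of Ets1, an endothelial factor gene, held a peak that was highest in progenitors, at 8.55 CPM against 2.92.

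Other list genes with a peak called only in Enl-T1 within 2 kb included the Wnt ligand genes Wnt2b, Wnt5a, Wnt8a, Wnt10a and Wnt16. In that order, the nearest Enl-WT peak lay 31, 722, 3335, 2048 and 7 bp away. Altogether 31 peaks called only in Enl-T1 lay within 2 kb of the TSS of a list gene, with between 158 and 2373 counts. At least 2-fold higher levels were seen for 6 of the 31 in progenitors, 5 in stroma, 3 in ureteric epithelium and 0 in endothelium. Over all Enl-T1 peaks the shares were 15.8%, 18.9%, 13.5% and 9.21%. Of the 31, 5 held a HOX9 to HOX13 word, where 20.2% of all peaks called only in Enl-T1 did. These counts are too small to read against those shares.

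The peaks were scattered over the genome. In tiles of 100 kb, 9600 of those with an Enl-T1 peak held no peak called only in Enl-T1, 6178 held 1, and 3 held 8. Those 3 were chr17:71900001-72000000, with 8 of 15 Enl-T1 peaks and no TSS, 168 kb from the TSS of Clip4, the tile chr2:49700001-49800000 with 8 of 17 peaks and the TSS of Lypd6b, and a tile on chromosome 18 with 8 of 12 and no TSS. The next by order were chr11:36200001-36300000, with 7 of 13 peaks and the TSS of Gm12127, and chr13:44600001-44700000, with 7 of 16 and the TSS of Gm47805, both among 7 tiles with 7. In the chromosome 17 tile, 4 of the 8 peaks were at least 2-fold higher in progenitors.

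Shared regions close to these peaks differed little between the libraries. Those within 5 kb of a peak called only in Enl-T1 had a median log2 ratio of Enl-T1 to Enl-WT of 0.07 (quartiles -0.15 and 0.34), against 0.03 over all shared regions and 0.03 for those beyond 100 kb. In stroma-like nuclei the values were 0.04 within 5 kb and 0.02 over all, in ureteric epithelium -0.02 and -0.02, and in endothelium -0.06 and -0.05. This is the contrast that chose the peaks, and the values are a description.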

How the data were processed

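snATAC-seq was performed on 1 Enl-WT and 1 Enl-T1 kidney library. The authors processed reads with Cell Ranger ATAC 2.1.0 on mm10 and called peaks per library, and the deposited matrices hold raw counts per peak and barcode. Barcodes with 2000 to 100000 counts were kept, doublets were not removed, and the study's filters that need fragments were not applied. Overlaps were checked with bedtools 2.31.1 and functions were tested on simulated data. Clustering used shared regions with an open share of 0.5% or more and ran Leiden (leidenalg 0.10.2, resolution 1) on components 2 to 30 of latent semantic indexing. Clusters took the class with the highest mean marker accessibility. It had to be at least 0.4 log2 above the median cluster, with 3 raised markers and a lead of 0.1 over classes of other lineages. Nephron classes were grouped as the same lineage, as were stromal classes. No lead was required within a lineage, such as of nephron progenitor over early nephron epithelium. Clusters stayed unnamed where markers of another class led them or where their 100 strongest regions held over 3 times the median cluster's share of counts. These rules left clusters 2 and 15 unnamed and so set the number of Enl-WT nuclei called progenitor-like. Markers for early nephron epithelium, smooth muscle or ureteric stroma, and neural cells gave no cluster its name. CPM within a class were relative to all peak counts of its Enl-T1 nuclei, with nothing added before ratios. TSS came from GENCODE M21 and sequence from the GRCm38 assembly of RefSeq. For weighting, shared peaks were given the distribution of peaks called only in Enl-T1 over 6 bins of counts and 5 of GC content (40, 45, 50, 55%). Words were searched on both strands, with 28 motifs in all.

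Named were the 8 peaks with most counts, the 3 with the highest ratio (at least 200 counts) in each class with at least 100 Enl-T1 nuclei, for each of 16 gene lists the 2 with most counts within 50 kb of a TSS, those within 2 kb of one, and the 5 tiles with most peaks. Those described in the text are a part of the 77 peaks so named. The peaks and lists were chosen with earlier results of these data known. Intervals for counts and class ratios took 2 counts as 1 fragment and cover counting error only. With 1 library per group no test was made, and sequences from chromosome 18 are not shown.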

Additional observations from a re-analysis of the deposited data

How the results depend on the processing

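No paired analysis was possible because each group has 1 library, and no library could be left out for the same reason. Of 82 alternative values, 41 lay inside the counting interval of the reported value and 41 outside it, and none came from a test. The share of Enl-T1 peaks called only in Enl-T1 was 16.5% when an overlap had to be reciprocal at 50%, 11.3% when an Enl-WT peak within 500 bp counted as shared and 4.45% at 5000 bp. The share of counts in these peaks was 5.12% with a minimum of 1000 counts per nucleus, 5.04% with 5000 and 5.45% with each value set to 1. The share beyond 2 kb of a TSS was 93.4%, and it was 96.7% beyond 1000 bp, 86.4% beyond 5000 bp and 94.8% without peaks within 500 bp of an Enl-WT peak.

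The share at least 2-fold higher in progenitor-like nuclei was 25.7% with a minimum of 5000 counts, 26.1% for peaks with at least 200 counts and 25.7% without cluster 6. For stroma-like nuclei it was 25% with each value set to 1 and 23.9% with a lead of 0.2 in naming, and for endothelium-like nuclei 5.31% with at least 200 counts. Adding 1 CPM to both values gave 17.3% in progenitors, 19.0% in stroma, 9.44% in ureteric epithelium and 3.57% in endothelium, where the shares over all Enl-T1 peaks were 12.1%, 15.4%, 11.3% and 7.49%. The lead of 0.2, the removal of cluster 6, the added CPM, the weighting of shared peaks and the ranking of words were chosen after seeing the data. The share with a HOX9 to HOX13 word was 14.6% in windows of 200 bp, 28.3% in 500 bp and 20.9% beyond 2 kb of a TSS, where shorter and longer windows hold fewer and more words by construction.

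With a window of 10 kb around the TSS, the share of genes with a peak called only in Enl-T1 was 38.5% (Hox genes), 11.1% (Hox cofactors), 40% (nephron commitment), 37.5% (stromal identity), 36.7% (Wnt ligands and feedback), 14.3% (ureteric epithelium), 15.4% (podocyte), 6.67% (proximal tubule), 12.5% (endothelium), 16.7% (immune cells), 28.6% (neural and neural crest), 16.7% (muscle), 23.1% (axon guidance), 24.0% (Fgf, Bmp and Gdnf signals), against 11.3% of all genes. With 100 kb it was 93.3% (Wnt ligands and feedback), 84.6% (podocyte), 73.3% (proximal tubule), 81.2% (endothelium), 84.6% (axon guidance), against 61.7% of all genes. The median peak had a count in 1.12% of Enl-T1 nuclei, and the part of depth in these values was not tested.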
